A study of Mus musculus with 4 samples.

Results

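The genes C1qa, C1qb and C1qc, which code for the A, B and C chains of complement C1q, were followed through single cells of tumour-bearing mouse lungs. The members were chosen by name from the gene list of the deposited matrices, and all 3 of 3 were found once each among 31053 genes. C1q is the recognition unit of the classical complement pathway. The 3 chains assemble into one molecule that binds antibody complexes, dying cells and other ligands, and its bound form activates the serine proteases C1r and C1s. Unlike most complement proteins, which the liver makes, C1q is made largely by macrophages and dendritic cells, and the protein also takes part in the uptake of apoptotic cells.

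The groups were Balb/c mice injected intravenously with 4T1 mouse mammary carcinoma cells, either 4T1.PD-L1 KO cells, in which PD-L1 is knocked out, or 4T1.WT cells. PD-L1 is a surface protein that restrains T cells through their receptor PD-1. The knockout is in the injected line, so the host cells that make C1q carry no engineered allele in either group, and the labels give no age. Lungs were perfused and collected 14 days after injection, digested with collagenase and enriched for CD45-bearing leukocytes with magnetic beads. Each group had 2 libraries, made with the 10x Genomics 3' kit, called PD-L1 KO 1 and PD-L1 KO 2, and WT 1 and WT 2. The names of the deposited files carry the opposite condition for both groups; the sample labels were used, and every direction below rests on them. Whether a group's libraries came from separate mice is not stated, so each p-value reflects only how far these libraries spread, which may be technical.

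The libraries held 2370 to 2736 barcodes and 17618220 to 19635983 UMIs (unique molecular identifiers, each marking 1 captured RNA molecule), and 2019 to 2451 cells per library were kept. Cd274, the gene of PD-L1, had 46.3 and 38.8 counts per 1000000 UMIs (CPM) in the PD-L1 KO libraries and 30.1 and 23.2 CPM in the WT libraries. That level does not check the labels, since the 14 kept cells with epithelial or carcinoma markers held 2, 1, 0 and 6 Cd274 UMIs in PD-L1 KO 1, PD-L1 KO 2, WT 1 and WT 2. The clusters of cells were made with C1qa, C1qb and C1qc left out of the genes used, and cell classes were named from other marker genes, so a name ending in "-like" does not rest on C1q itself. C1q still moves with genes that were used, so its level by cluster is given as a description. WT 2 stood apart from the other libraries in the makeup of its macrophages and in its low share of T-like and other cells with a C1q UMI, and results that rest on it are given with and without it.

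The 3 genes lie side by side on the minus strand of chromosome 4 (mm10, GENCODE M21 annotation). C1qb spans 136880129 to 136886187 (ENSMUSG00000036905), C1qc 136889804 to 136893065 (ENSMUSG00000036896) and C1qa 136895917 to 136898803 (ENSMUSG00000036887). The whole stretch is 18675 bp long, with gaps of 3616 bp between C1qb and C1qc and 2851 bp between C1qc and C1qa. No annotated gene lies between them and none overlaps them, so their counts are not shared with another annotated gene. Because the 3 chains were found together in the same cells, the promoter windows that RefSeq's table gives for C1qb and C1qc are shown, each from 250 bases before to 50 bases after the gene's start, 5′ to 3′ on the gene's strand (GRCm38.p6, the same assembly as mm10). The C1qb window is chr4:136886151-136886450 and the C1qc window is chr4:136892865-136893164, both on the minus strand, and capitals mark letters that match a motif searched for. The starts are those of RefSeq's table and differ from the ends of the GENCODE spans given above. Most of the C1qc window lies inside the C1qc span.
C1qb: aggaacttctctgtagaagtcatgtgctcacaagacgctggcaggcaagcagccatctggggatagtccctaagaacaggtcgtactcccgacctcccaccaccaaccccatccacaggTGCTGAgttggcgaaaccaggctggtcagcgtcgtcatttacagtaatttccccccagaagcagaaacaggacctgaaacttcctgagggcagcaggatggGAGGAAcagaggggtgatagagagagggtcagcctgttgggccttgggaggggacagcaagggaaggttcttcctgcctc
C1qc: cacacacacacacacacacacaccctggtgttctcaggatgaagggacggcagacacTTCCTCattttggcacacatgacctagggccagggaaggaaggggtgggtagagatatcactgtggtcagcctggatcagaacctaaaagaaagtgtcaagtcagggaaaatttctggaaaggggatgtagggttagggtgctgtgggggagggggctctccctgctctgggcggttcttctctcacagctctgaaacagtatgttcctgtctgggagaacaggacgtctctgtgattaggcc
Motifs of 3 kinds of factor used in macrophages were searched on both strands: TGCTGA, the half-site of MAF factors, GAGGAA, an ETS core of the kind PU.1 binds, and an interferon regulatory factor repeat. The motifs do not overlap each other in these windows. TGCTGA matched 1 time in the C1qb window, 131 bases before the start, and not in the C1qc window; 19.5% of all 32851 promoter windows hold it. GAGGAA matched 1 time in each window, and 28.3% of all windows hold it. It lay 30 bases before RefSeq's C1qb start and, on the opposite strand, 193 bases before RefSeq's C1qc start. The repeat, held by 3.44% of all windows, matched in neither.

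C1q transcripts were concentrated in macrophages other than the alveolar ones. The non-alveolar macrophage-like class held 10.3% and 11.2% of the kept cells in the PD-L1 KO libraries and 7.1% and 4.7% in the WT libraries, yet it held 77.1% and 80.3% of all C1q UMIs in the PD-L1 KO libraries and 78.6% and 80.8% in the WT libraries. The share of C1q carried by the class thus lay between 77.1% and 80.8% in every library, while its share of the cells varied more. Clusters left unnamed, because they carried markers of a second lineage, showed too few markers or had no marker among their leading genes, held most of the rest, 16.3% and 12.8% in the PD-L1 KO libraries and 13% and 10.7% in the WT libraries.

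Within the class, C1qa had 3992 and 3813 CPM in the PD-L1 KO libraries and 3783 and 4716 CPM in the WT libraries. C1qb had 2697 and 2484 CPM in the PD-L1 KO libraries and 2455 and 2787 CPM in the WT libraries. C1qc had 1988 and 1848 CPM in the PD-L1 KO libraries and 1909 and 2181 CPM in the WT libraries. WT 2 was the highest library for all 3 chains, and the groups overlapped for each of them. The class next in the order of pooled C1qa levels was plasmacytoid dendritic-like at 747 CPM, then the unnamed clusters at 349, ILC2 or gamma-delta T-like cells at 258 and dendritic-like cells at 208, against 3964 CPM in the class itself. Neighbours below the top of that order did not differ beyond their spread: plasmacytoid dendritic-like cells ranged over libraries from 0 to 970 CPM, ILC2 or gamma-delta T-like cells from 65.2 to 465 and dendritic-like cells from 166 to 303. Further down came neutrophil-like cells (libraries 52.8 to 127), B-like cells at 99.9 (13.5 to 203), monocyte-like cells at 60.7 (13 to 142), endothelial-like cells at 48.3 (3.24 to 155), NK-like cells at 46.8 (2.40 to 91.5) and T-like cells at 46.1 (26.4 to 63.4), whose ranges overlap each other. The 14 epithelial or carcinoma-like cells had 104 CPM, with 78 of their 91 C1qa UMIs in the 1 such cell of WT 2. Fibroblast-like cells had 24 CPM, and 0 of 10 basophil or mast-like cells had a C1q UMI. Alveolar macrophage-like cells were near the bottom at 24.4 CPM of C1qa, although they are macrophages with a median of 10386 UMIs per cell.

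**Figure D1:**
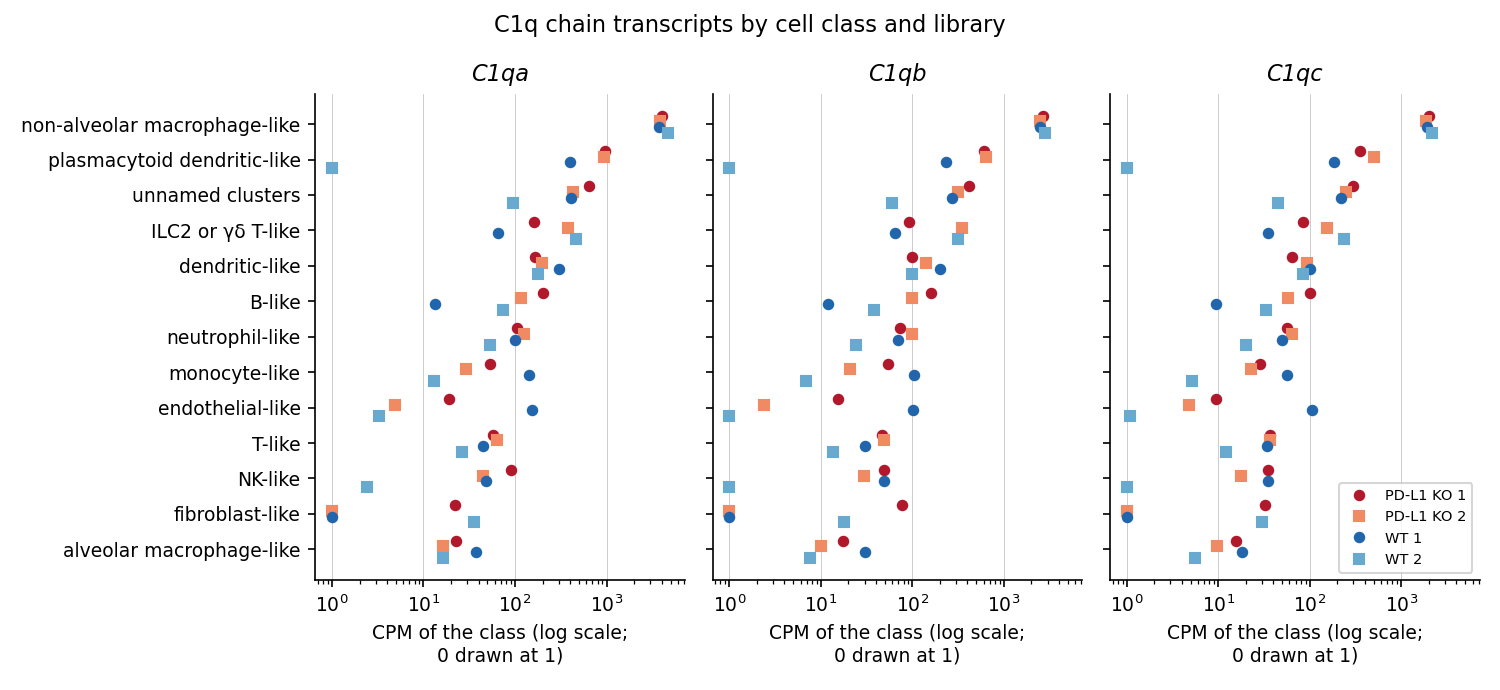
Level of each C1q chain in CPM (log axis, 0 drawn at 1) in each cell class with at least 50 cells, 1 point per library, PD-L1 KO red and WT blue. Non-alveolar macrophage-like cells stand at the right in all 4 libraries, with 3783 to 4716 CPM of C1qa, and alveolar macrophage-like cells lie at 16.2 to 37.6 CPM.

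The class consisted of 2 clusters that differed in their genes. The first, with 547 cells, was led by Saa3, Cxcl9, Mmp12 and Arg1, which are genes of inflammatory and tissue-remodelling macrophages, and is called the Mmp12-led cluster. The second, with 193 cells, was led by Folr2, Ccl8, Stab1 and Cd163, genes of resident tissue macrophages, and is called the Folr2-led cluster. The Mmp12-led cluster had 183 and 199 cells in the PD-L1 KO libraries and 124 and 41 in the WT libraries. The Folr2-led cluster had 45 and 28 cells in the PD-L1 KO libraries and 50 and 70 in the WT libraries. It made up 19.7% and 12.3% of the class in the PD-L1 KO libraries and 28.7% and 63.1% in the WT libraries, so different clusters held most of the class in WT 2 and in the other 3 libraries.

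Both clusters carried all 3 chains at high levels. In the Folr2-led cluster C1qa had 4947 and 4784 CPM in the PD-L1 KO libraries and 4839 and 4291 CPM in the WT libraries. In the Mmp12-led cluster C1qa had 3807 and 3699 CPM in the PD-L1 KO libraries and 3538 and 5547 CPM in the WT libraries. The Folr2-led cluster was the higher in 3 of 4 libraries and the lower in WT 2, where the Mmp12-led cluster had 41 cells with a median of 6968 UMIs, against 12685 to 14652 in the other libraries. C1qb and C1qc were likewise higher in the Folr2-led cluster in the other 3 libraries, with 2699 to 3175 CPM of C1qb against 2398 to 2604 CPM in the Mmp12-led cluster, and lower in WT 2. At a finer clustering (resolution 2) the class held a further cluster of 79 cells led by Retnla and Col14a1, with 26 and 17 cells in the PD-L1 KO libraries and 16 and 20 in the WT libraries. Its C1qa level was 7118 and 7567 CPM in the PD-L1 KO libraries and 3956 and 7955 CPM in the WT libraries, at a pooled median of 5800 UMIs per cell. The finer Mmp12-led cluster had 3550 and 3594 CPM in the PD-L1 KO libraries and 3464 and 4592 CPM in the WT libraries, and in WT 2 it held 20 cells, as many as the Retnla-led one.

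The clusters differed more in how evenly C1q was spread over cells. In the Folr2-led cluster 97.9% of cells had at least 1 UMI of all 3 chains, and the median cell held 98 C1q UMIs over the 3 chains. In the Mmp12-led cluster 77.9% had all 3 chains, 13.7% had none and the median was 78, with a lower quartile of 14.5 and an upper quartile of 189 UMIs. Of the 76 cells of the class without any C1q UMI, 75 were in the Mmp12-led cluster, 32 and 26 in the PD-L1 KO libraries and 15 and 2 in the WT libraries. Those 75 cells had a median of 9164 UMIs in all, so they were not empty. Depth did not rise steadily with C1q. The median was 10369 UMIs in the 51 cells with 1 to 9 C1q UMIs and 7683.5 in the 176 cells with 10 to 99. It was 20140 in the 245 cells with 100 or more.

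**Figure D2:**
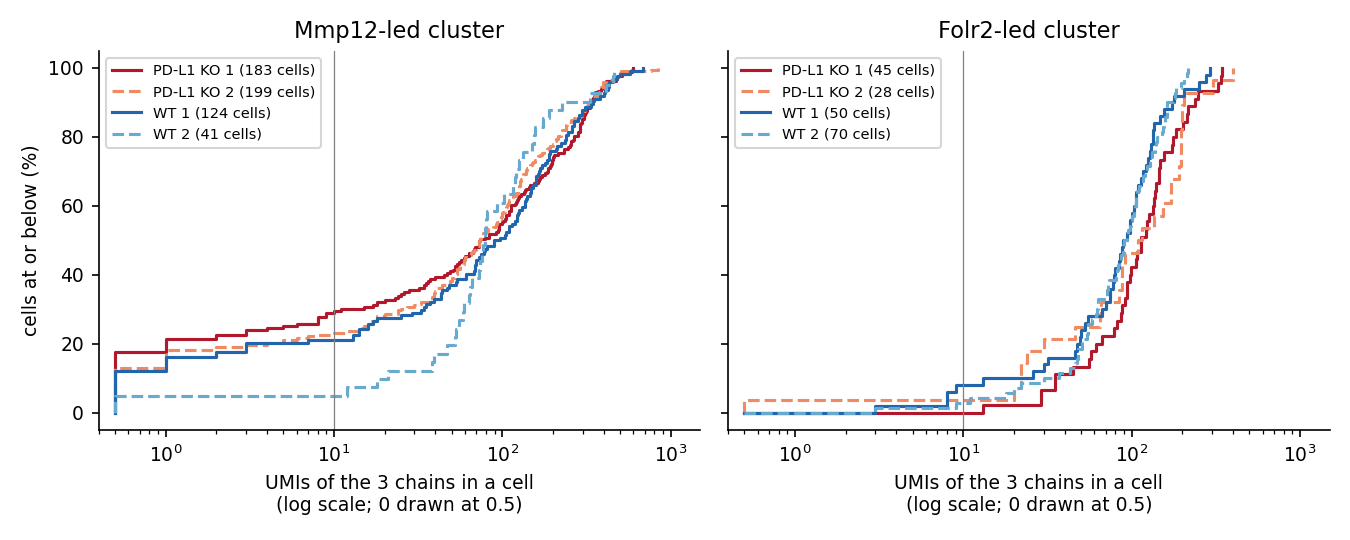
Cumulative share of cells (vertical axis, %) by the UMIs of the 3 C1q chains in a cell (log axis, 0 drawn at 0.5) in the 2 clusters, 1 line per library; the vertical line marks 10 UMIs. The Folr2-led cluster rises late and steeply, with 0 to 1 cells at 0 in each library, and the Mmp12-led cluster has a step at 0 of 17.5% and 13.1% in the PD-L1 KO libraries and 12.1% and 4.9% in the WT libraries.

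Within the Mmp12-led cluster, cells with little C1q carried more of the monocyte genes. The 421 cells with at least 10 C1q UMIs and the 126 with fewer were compared over the marker lists, as a description, since the clustering used those genes and cells of a library are not replicates. Of 9 classical monocyte markers, 8 were lower in the cells with at least 10 C1q UMIs over the pooled libraries. Library by library the count was 8 and 6 of 9 in the PD-L1 KO libraries and 6 and 6 of 9 in the WT libraries. The WT 2 count includes Vcan, a tie at 0 CPM, and rests on 2 cells with fewer than 10 C1q UMIs. Ly6c2, Plac8, Ccr2 and Ms4a4c were lower in all 4 libraries. Fn1 was higher in both WT libraries, Hp and F13a1 in PD-L1 KO 2 and WT 2, and Vcan in WT 1. Ly6c2, the gene of the monocyte surface protein Ly6C, had 51.8 CPM in them against 355 CPM in the cells with fewer, and Plac8 317 against 1616 CPM.

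Of 18 macrophage markers, 15 were higher in the cells with at least 10 C1q UMIs over the pooled libraries, and 14 and 13 in the PD-L1 KO libraries and 13 and 16 in the WT libraries. Ms4a7 had 405 CPM in them against 96.5 CPM in the cells with fewer, Mmp12, which codes for macrophage elastase, 390 against 79.6 CPM, and Trem2, a lipid-sensing receptor, 359 against 157 CPM. The 3 lower ones included Fcgr1, with 278 against 339 CPM, and Aif1, with 882 against 1065 CPM. Lyve1 and Cd163 were counted as higher although both were under 1 CPM in either set of cells. Ly6c2 stood on the same side in each library: 82.5 against 435 CPM in PD-L1 KO 1, 36.5 against 315 in PD-L1 KO 2, 41.2 against 317 in WT 1 and 17.4 against 153 in WT 2, where only 2 cells had fewer than 10. The median depth was 15331 UMIs in the cells with at least 10 and 9532.5 in the cells with fewer. The order was the same in PD-L1 KO 1, PD-L1 KO 2 and WT 1. In WT 2 it was reversed, at 6892 against 29431 UMIs, the latter from 2 cells. The part of depth in this contrast was not tested.

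**Figure D3:**
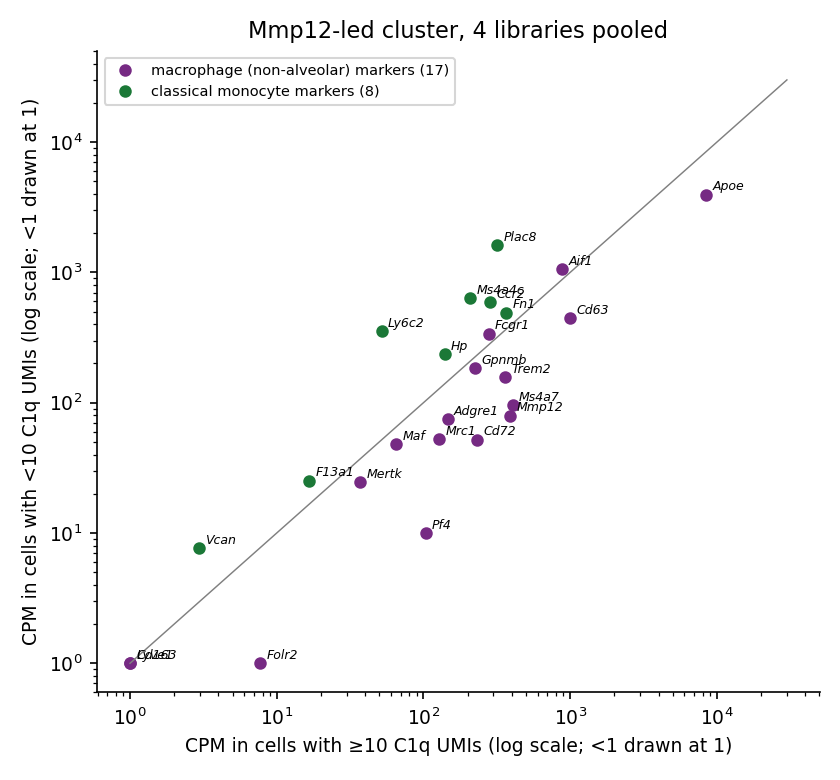
Each point is a marker gene placed by its pooled CPM in cells of the Mmp12-led cluster with at least 10 C1q UMIs (horizontal) and with fewer than 10 (vertical), on log axes with values under 1 drawn at 1; the line marks equality. One marker of each list is not drawn. The classical monocyte markers drawn all lie above the line, and 15 macrophage markers lie below it, counting Lyve1 and Cd163, which overlie each other at the lower left corner.

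The chains kept nearly fixed proportions. In the macrophage class C1qa made up 46.0% and 46.8% of C1q UMIs in the PD-L1 KO libraries and 46.4% and 48.7% in the WT libraries. C1qb made up 31.1% and 30.5% in the PD-L1 KO libraries and 30.1% and 28.8% in the WT libraries, and C1qc 22.9% and 22.7% in the PD-L1 KO libraries and 23.4% and 22.5% in the WT libraries. The kit counts 3' ends and capture differs between transcripts, so the proportions serve to compare cells and not to rank the chains. C1qb had a smaller share in the Folr2-led cluster (28.3% of 21152 UMIs, exact Clopper-Pearson limits 27.7% to 28.9%) than in the Mmp12-led cluster (31.0% of 69370 UMIs, limits 30.7% to 31.4%), and was the lower there in each library, by values of 30.0% against 31.4%, 29.6% against 30.6%, 27.3% against 31.0% and 26.9% against 31.4% in PD-L1 KO 1, PD-L1 KO 2, WT 1 and WT 2. Intervals of this kind cover counting error only. Over the cells of the class, log2-scaled levels of 2 chains correlated with Pearson's r of 0.93 to 0.95 (740 cells, which share libraries and depth), with 0.84 to 0.87 in WT 2 and 0.68 to 0.78 in the Folr2-led cluster of WT 1, and over the 30 clusters of at least 50 cells with r of 0.93 to 0.98.

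Beside the 2 macrophage clusters, the cycling cells held the next highest C1q. A cluster of 142 cells led by histone genes, Top2a and Mki67, which mark dividing cells, had 1880 CPM of C1qa and stayed unnamed because no marker of a lineage was among its leading genes. In it, 44 cells held 10130 of the 10170 C1q UMIs and the other 98 cells held 40. The 44 cells were 14 and 17 in the PD-L1 KO libraries and 9 and 4 in the WT libraries; 93.2% of them had a UMI of Csf1r, the receptor for the macrophage growth factor CSF1, and 25% one of Cd3e, a T cell gene. Of the 98 cells, 13.3% had a UMI of Csf1r and 61.2% one of Cd3e. C1q therefore sat in a part of the cycling cells that also carried macrophage genes, with 35% and 34% of the cluster at 10 or more C1q UMIs in the PD-L1 KO libraries and 32.1% and 16.7% in the WT libraries.

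The 10 genes whose levels followed the mean of the chains most closely over the 30 clusters, among 7757 genes with at least 50 CPM in some cluster, were Ccl12, C3ar1, Ms4a7, Ccl7, Cd72, Aif1, Mgl2, Fcrls, Gm15056 and Cxcl9, with Pearson's r of 0.92 to 0.75. Clusters share their libraries, so no test is given. C3ar1, the receptor for the complement fragment C3a, had r of 0.90, with 173 CPM in the Mmp12-led and 180 CPM in the Folr2-led cluster. Ccl12, a chemokine gene, had 238 and 671 CPM in the same clusters. Ms4a7 was as even, with 357 and 367 CPM, and Cxcl9, an interferon-gamma-induced chemokine, was the most uneven toward the Mmp12-led side except Gm15056, with 1204 against 50.5 CPM in the Folr2-led cluster.

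Outside the non-alveolar macrophage-like class C1q was met in 2 forms, as 1 to 9 UMIs in many cells and as higher counts in a few. In T-like cells, which should lack the genes, 17.3% and 20.9% had at least 1 UMI of any chain in the PD-L1 KO libraries and 14% and 5.9% in the WT libraries, at a median depth of 4002 UMIs. Alveolar macrophage-like cells had 18.6% and 18.4% in the PD-L1 KO libraries and 10.5% and 6.7% in the WT libraries, at a median of 10386 UMIs, and monocyte-like cells had 18.0% and 18.1% in the PD-L1 KO libraries and 11.7% and 5.7% in the WT libraries, at 6268 UMIs. These shares differ little from that of T-like cells, at unequal depths. The part of RNA from other cells in them was not tested. At 10 or more UMIs the shares were 2.0% and 1.9% in the PD-L1 KO libraries and 1.8% and 0.3% in the WT libraries for T-like cells, 2.2% and 0.4% against 0.9% and 0.5% for alveolar macrophage-like cells and 2.3% and 1.4% against 1.7% and 0% for monocyte-like cells, where 0 of 176 cells in WT 2 allows a share of up to 1.7%. Non-alveolar macrophage-like cells had 76.8% and 79.7% in the PD-L1 KO libraries and 82.8% and 96.4% in the WT libraries at that threshold.

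**Figure D4:**
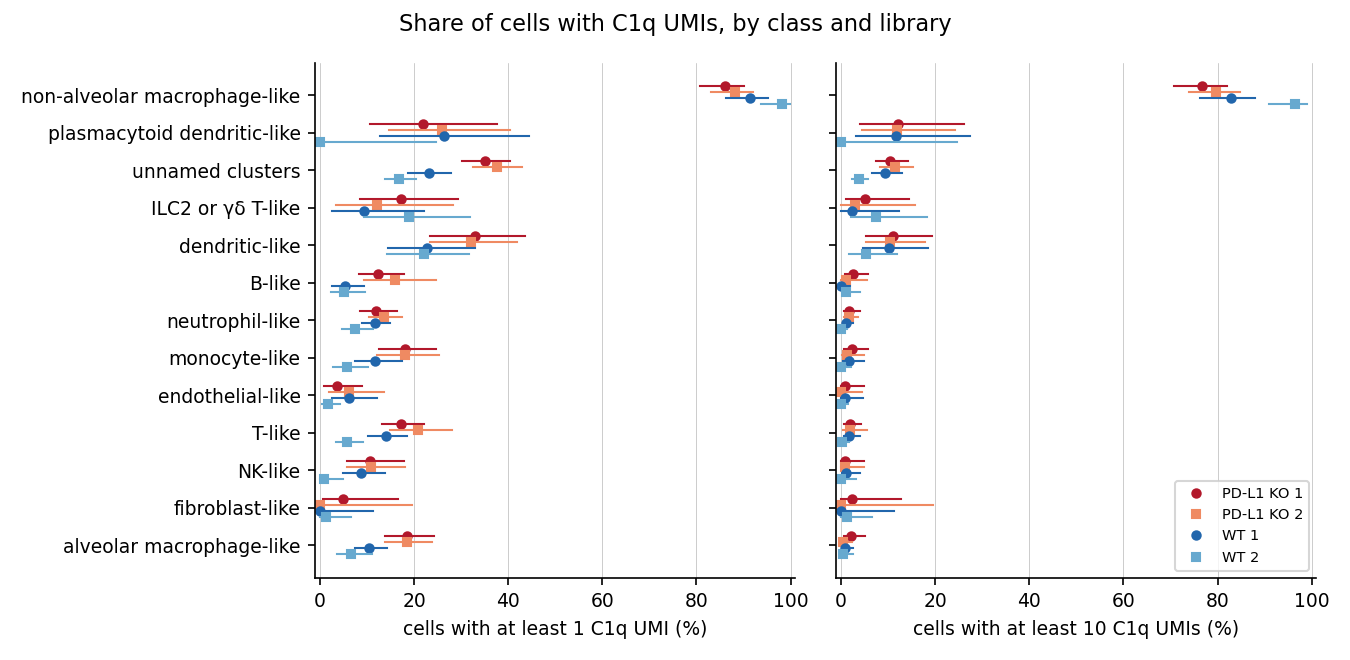
Share of cells with at least 1 (left) and at least 10 (right) UMIs of the 3 C1q chains, by class and library, with exact Clopper-Pearson 95% intervals that cover counting error only. Most classes other than non-alveolar macrophage-like cells drop to a few percent at 10 UMIs, and WT 2 is the lowest library in 10 of the 12 other rows at 1 UMI.

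High counts outside the macrophage class came from few cells, which were deeper than the rest of their class where depths are given. In plasmacytoid dendritic-like cells 15 of 138 cells held 98.1% of the class's C1q UMIs, with a median of 19924 UMIs per cell against 6870 in the 107 cells without C1q. Of those 15 cells, 73.3% had a UMI of Ms4a7, a gene of macrophages, against 0% of the 107. They were 5 and 6 cells in the PD-L1 KO libraries and 4 and 0 in the WT libraries; 0 of 13 cells in WT 2 allows a share of up to 23.1%. In B-like cells 8 of 668 cells held 77.2% of the C1q UMIs, at a median of 6117 UMIs per cell against 2767 in cells without, and all 8 had Apoe, a lipid carrier gene abundant in macrophages, along with a B cell marker. Apoe was also found in 75% of the B-like cells with 1 to 9 C1q UMIs and in 44.9% of those without. In T-like cells 15 of 1045 cells held 48.9%, at a median of 4578 UMIs per cell against 3980 in cells without, with 86.7% of them showing Apoe against 7.8% of the T-like cells without C1q, and all 15 also showing a T cell marker. Of the named classes other than macrophages, dendritic-like cells had the largest number, 35 of 380, which held 92.2% of the class's C1q, and 28.6% of them had Ms4a7 against 0.364% of those without C1q. Whether such cells are 1 cell or 2 in a droplet was not tested. Barcodes marked by the doublet caller had been left out beforehand, so the absence of a mark does not speak to this.

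Among dendritic-like cells, the type 2 cluster led by Cd209a and Mgl2 had 269 CPM of C1qa with 11.9% of its 143 cells at 10 or more UMIs of that chain. The type 1 cluster led by Xcr1 and Clec9a had 188 CPM with 3.6% of 166 cells, and the mature cluster led by Ccl22 and Fscn1 had 125 CPM with 4.2% of 71 cells. Within the monocytes the classical cluster had 79.0 CPM and the nonclassical cluster 10.1 CPM, each pooled over libraries.

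Summed over all kept cells, the 3 chains were higher in both PD-L1 KO libraries than in both WT libraries, but not past the test. C1qa had 976 and 977 CPM in the PD-L1 KO libraries and 736 and 386 CPM in the WT libraries, 976 ± 0.557 and 561 ± 247 CPM (SD, n = 2 each). C1qb had 657 and 650 CPM in the PD-L1 KO libraries and 483 and 230 CPM in the WT libraries, and C1qc 479 and 486 against 372 and 180 CPM. The PD-L1 KO libraries lay close together and the WT libraries lay farther apart. The log2 differences (PD-L1 KO minus WT) were 0.85 (SE 0.35) for C1qa, 0.92 (SE 0.39) for C1qb and 0.85 (SE 0.39) for C1qc, each with a Benjamini-Hochberg adjusted p of 0.751 by edgeR's quasi-likelihood test over 13990 genes. That test called 0% of genes in either direction, with 541 genes (3.87%) at an unadjusted p under 0.05, and DESeq2 called 12 genes. Both PD-L1 KO libraries lay above both WT libraries for 14.9% of all genes, so 3 of 3 chains doing so is set against that share. Without WT 1 the C1qa difference was 1.46 (adjusted p = 0.000512) and 2258 genes were called, and without WT 2 it was 0.42 and 48 genes were called. Over sums of leukocyte clusters alone the differences were 0.76, 0.84 and 0.77.

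**Figure D5:**
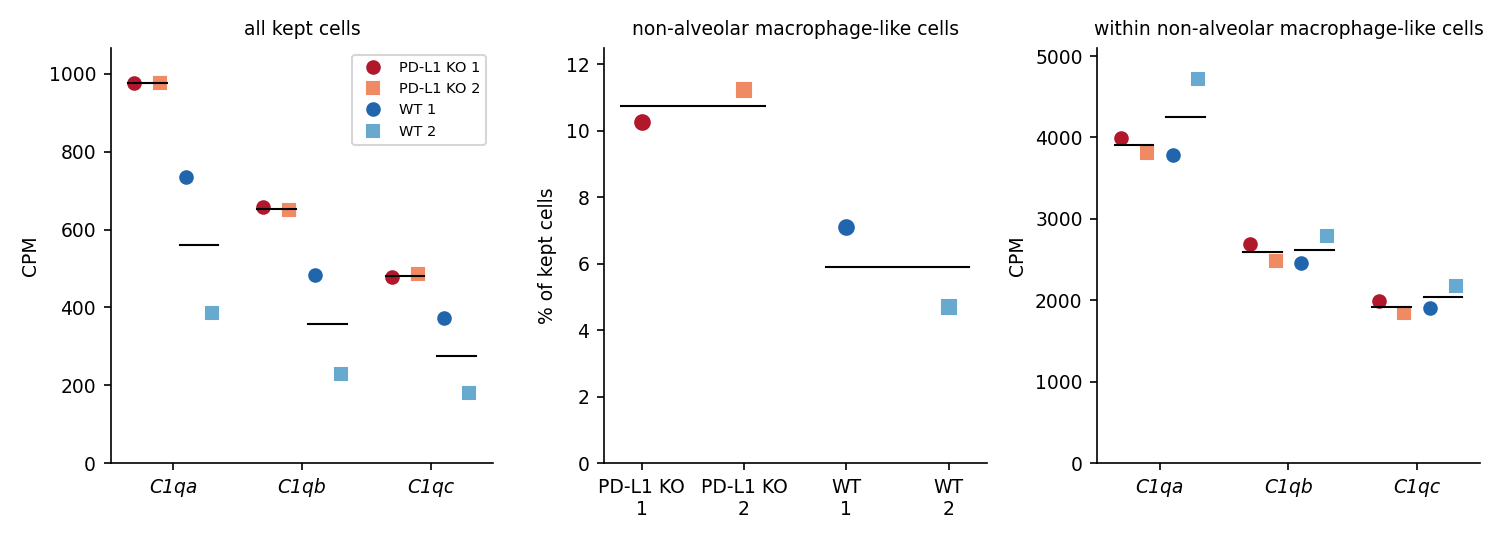
C1q chains in CPM over all kept cells (left), the share of kept cells in the non-alveolar macrophage-like class (middle) and the chains in CPM within that class (right), 1 point per library with the group mean as a line. The PD-L1 KO libraries lie above the WT libraries in the first 2 panels and overlap with them in the third.

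Relative to all UMIs of the macrophage class no such difference was seen. Counted per cell, the median was 94.5 and 80 UMIs of the 3 chains in the PD-L1 KO libraries and 91.5 and 86 in the WT libraries. WT 2 was thus highest by CPM but not by that count. Within the non-alveolar macrophage-like class the log2 difference was -0.05 for C1qa (SE 0.18, 95% interval -0.46 to 0.36, adjusted p = 0.947), 0.05 for C1qb (SE 0.18, interval -0.36 to 0.47) and -0.02 for C1qc (SE 0.18, interval -0.44 to 0.40). The highest upper limit, that of C1qb, was 1.38-fold. Of 10268 genes, 0% were called in either direction by edgeR, 783 (7.63%) had an unadjusted p under 0.05 and DESeq2 called 8. Both PD-L1 KO libraries lay above both WT libraries for 17.7% of genes and below for 26.2%, and for 0 of 3 chains in either direction. In the Mmp12-led cluster alone the differences were -0.27, -0.27 and -0.24, and in the Folr2-led cluster alone 0.10, 0.30 and 0.14, none past the test in either. In UMIs per cell the Folr2-led cluster had 60.6 and 61.0 of C1qa in the PD-L1 KO libraries and 48.2 and 48.5 in the WT libraries; its median depth was 8831 and 10001 UMIs in the PD-L1 KO libraries and 6811 and 9289 in the WT libraries, and the part of depth was not tested.

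The share of the class among kept cells was higher in both PD-L1 KO libraries, at the 10.3% and 11.2% against 7.1% and 4.7% given above. The log2 difference was 0.87 (SE 0.44, 95% interval -0.04 to 1.78, unadjusted p = 0.061 and adjusted p = 0.366 over 12 classes in edgeR's quasi-likelihood test), and 0 classes were called, with 1 at an unadjusted p under 0.05. Without WT 1 the difference was 1.2 and without WT 2 it was 0.60, neither past the test after adjustment. The Mmp12-led cluster made up 8.2% and 9.9% of kept cells in the PD-L1 KO libraries and 5.1% and 1.7% in the WT libraries. The Folr2-led cluster made up 2.0% and 1.4% in the PD-L1 KO libraries and 2.0% and 3.0% in the WT libraries.

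The share of class cells with at least 10 UMIs of a chain was lower in both PD-L1 KO libraries as counted. After thinning each cell to 2000 UMIs the groups overlapped for C1qa and C1qb. The 2 cuts are not alike, since 10 UMIs of 2000 ask for a higher level than 10 UMIs of a deeper cell. At least 10 UMIs of C1qa were found in 72.4% and 73.1% of cells in the PD-L1 KO libraries and in 79.3% and 91.0% in the WT libraries, 72.7% ± 0.537 and 85.2% ± 8.26 (SD, n = 2 each). For C1qb the shares were 68.9% and 69.6% in the PD-L1 KO libraries against 73.0% and 87.4% in the WT libraries, and for C1qc 66.7% and 65.6% in the PD-L1 KO libraries against 69.5% and 79.3% in the WT libraries. Both PD-L1 KO libraries lay below both WT libraries for 3 of 3 chains. Of the 494 genes that reached 10 UMIs in at least 10% of the class's cells, 6.28% lay on that side and 43.7% on the opposite side. An exact two-sided permutation test of 2 against 2 libraries gave p = 0.333 for each chain, the smallest it can give. After thinning each cell to 2000 UMIs, C1qa reached 10 UMIs in 42.5% and 36.7% of cells in the PD-L1 KO libraries and 42.0% and 57.7% in the WT libraries, with the groups then overlapping. C1qb reached it in 22.4% and 24% in the PD-L1 KO libraries and 18.5% and 26% in the WT libraries, a difference of 0.96 percentage points in the opposite direction, and C1qc in 11.9% and 6.8% in the PD-L1 KO libraries and 14% and 22.1% in the WT libraries. For this, 9, 6, 17 and 7 shallower cells of PD-L1 KO 1, PD-L1 KO 2, WT 1 and WT 2 were left out. The mix of the 2 clusters moves with this share, and within the Mmp12-led cluster it was 66.1% and 70.9% in the PD-L1 KO libraries and 74.2% and 85.4% in the WT libraries.

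In other cell sets the chains were not past the test either. Monocyte-like and non-alveolar macrophage-like cells together had log2 differences of 0.27 (SE 0.12), 0.36 (SE 0.15) and 0.29 (SE 0.15) for C1qa, C1qb and C1qc, adjusted p = 0.615 by edgeR for each, with all 3 chains higher in both PD-L1 KO libraries, as were 18.1% of 10556 genes. Of those genes 0% were called by edgeR, 829 (7.85%) had an unadjusted p under 0.05 and DESeq2 called 14. Without WT 1 the C1qb difference was 0.56 (adjusted p = 0.028). The share of macrophages in this sum moves with the group, so the value mixes the level within a class and the makeup.

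Alveolar macrophage-like cells had 22.7 and 16.4 CPM of C1qa in the PD-L1 KO libraries and 37.6 and 16.2 CPM in the WT libraries, a log2 difference of -0.48 (SE 0.36, adjusted p = 0.725 by edgeR). The sign of the C1qa value turned under several settings, among them without WT 1 (0.30). C1qb had -0.50 (SE 0.53) and C1qc 0.05 (SE 0.47). Of 9685 genes, 0.0207% were called higher and 0% lower in PD-L1 KO by edgeR, 929 (9.59%) had an unadjusted p under 0.05, DESeq2 called 24, and the groups of all 3 chains overlapped.

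Cells of other lineages, which are T-, B- and NK-like cells, neutrophils, ILC2 or gamma-delta T-like cells, endothelial, fibroblast and the rarer classes, had 88.7 and 88.2 CPM of C1qa in the PD-L1 KO libraries and 65.6 and 71.6 CPM in the WT libraries. C1qb had 65.5 and 70.7 CPM in the PD-L1 KO libraries and 47.9 and 48.2 CPM in the WT libraries, and C1qc 47.0 and 42.5 against 42.8 and 37.5 CPM. The log2 differences were 0.42 (SE 0.11), 0.56 (SE 0.12) and 0.21 (SE 0.14), with adjusted p of 0.855, 0.855 and 0.871 by edgeR, and the groups did not overlap for C1qa and C1qb, as for 12.9% of 11720 genes in that direction. Of these genes 0% were called by edgeR, 659 (5.62%) had an unadjusted p under 0.05 and DESeq2 called 8. With a stricter filter on cells the differences were 1.5, 1.78 and 1.55, none past the test. The 3 chains summed to 201 and 201 CPM over these lineages in the PD-L1 KO libraries and to 156 and 157 CPM in the WT libraries. Single cells weighed on these sums: the cell with the most C1q held 181 of 869 and 115 of 630 UMIs in the PD-L1 KO libraries and 248 of 727 and 204 of 679 UMIs in the WT libraries. At least 1 C1q UMI was found in 13% and 14% of these cells in the PD-L1 KO libraries and in 10% and 5.2% in the WT libraries, so WT 2 was the lowest by share and level with WT 1 by CPM. The part of single cells and of free RNA in the differences was not tested.

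Other complement genes were looked up in the macrophage class from 6 lists of 77 genes. Of 8 further classical pathway genes 5 could be tested and 0 were called. Their median log2 difference was 0.29, against 0.00 over all 10268 genes. C3, the central component of all complement pathways, had 276 and 185 CPM in the PD-L1 KO libraries and 156 and 141 CPM in the WT libraries, a log2 difference of 0.69 (SE 0.24, adjusted p = 0.640 by edgeR). Its groups did not overlap. C4b, the component cleaved by C1s, differed by 0.33 (SE 0.25) with overlapping groups.

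Of 10 alternative and terminal pathway genes 3 were tested and 0 called, with a median of 0.21. Cfb, factor B of the alternative pathway, had 52.6 and 28.9 CPM in the PD-L1 KO libraries and 21.5 and 13.4 CPM in the WT libraries, with a log2 difference of 1.2 (SE 0.35, adjusted p = 0.611 by edgeR). Cfp, properdin, differed by -0.13. Of 10 complement inhibitors 3 were tested and 0 called, with log2 differences of -1.41 to -0.24. Cd55, decay-accelerating factor, had 19.4 and 19.9 CPM in the PD-L1 KO libraries and 24.2 and 96.2 CPM in the WT libraries. WT 2 stood alone at the high end, and Cr1l, a rodent regulator of C3 deposition, differed by -0.24 (SE 0.19).

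Of 15 complement and C1q receptor genes 12 were tested and 0 called, with a median of 0.17. Calr, calreticulin, a partner of C1q on cell surfaces, differed by 0.33 (SE 0.27), Itgb2, the beta chain of complement receptors 3 and 4, by 0.24 (SE 0.23), C3ar1 by -0.01 (SE 0.21) and Lair1, an inhibitory receptor that binds C1q, by 0.54 (SE 0.21, adjusted p = 0.640 by edgeR), with 176 and 173 CPM in the PD-L1 KO libraries and 136 and 112 CPM in the WT libraries. Of 17 genes for apoptotic cell uptake 16 were tested and 0 called, with a median of -0.14. Stab1, the scavenger receptor stabilin-1, had 97.6 and 89.2 CPM in the PD-L1 KO libraries and 177 and 479 CPM in the WT libraries, a log2 difference of -1.71 (SE 0.38, adjusted p = 0.555 by edgeR), and Axl, a receptor tyrosine kinase for apoptotic cells, differed by 0.35 (SE 0.19). Tyrobp, the adaptor DAP12, differed by 0.18 (SE 0.19), and Trem2, which signals through it, by 0.23 (SE 0.26). Of 18 other genes with a C1q domain 3 were tested and 0 called, with a median of 0.33, and Emilin2 and Emilin1, matrix glycoproteins, differed by 0.31 (SE 0.28) and 0.33 (SE 0.34). Stab1 is a leading gene of the Folr2-led cluster, whose share of the class is given above, and the part of that mix in these differences was not tested.

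The 5 genes with the smallest p in the class were Lyve1, Phf11a, Rtp4, H2-M2 and Ifit1, all at an adjusted p of 0.555 by edgeR and so not called. Lyve1, a receptor of resident macrophages, had 14.7 and 17.3 CPM in the PD-L1 KO libraries and 47.6 and 99.5 CPM in the WT libraries. Pooled over libraries, Lyve1 had 161 CPM in the Folr2-led cluster and 0.118 CPM in the Mmp12-led cluster. The part of the cluster mix in its difference was not tested. Ifit1, an interferon-induced gene, had 77.9 and 85.9 CPM in the PD-L1 KO libraries and 40.4 and 31.0 CPM in the WT libraries, and Rtp4, also interferon-induced, 126 and 124 against 61.2 and 58.6 CPM. The C1q chains ranked far from them, with unadjusted p of 0.785, 0.778 and 0.904 by the same edgeR fit over the class.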

How the data were processed

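The files the authors deposited are raw UMI counts for each gene in each barcode, whole numbers with no normalization, per the file headers and the values. The submitters' processing notes name mm10, STAR and Cell Ranger 3.1.0, and the sources used here give no annotation release.

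Barcodes with fewer than 200 genes or over 10% mitochondrial UMIs (1126) and those with the highest Scrublet doublet scores (216, or 2.08% of 10382) were left out, and 9054 cells were kept, with 2019 to 2451 cells per library at medians of 4395 to 5512 UMIs. At most 3 barcodes were shared by a pair of libraries. Leiden clustering (scanpy 1.11.5, resolution 1) used 2000 variable genes without C1q, interferon-response, ribosomal and mitochondrial genes, and gave 32 clusters. Of these, 9 stayed unnamed (1565 cells, 15.5% and 17.3% of the PD-L1 KO and 14.3% and 22.1% of the WT libraries) because a second lineage's marker score reached 0.6 of the first (7 clusters), too few markers were found (1) or no marker was among the leading genes (1). Those limits were set after the clusters had been seen.

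Counts were summed per library and cell set, since cells are not replicates, and tested with edgeR 4.0.16 (filterByExpr, TMM, quasi-likelihood, Benjamini-Hochberg over all genes tested, threshold 0.05), with the group as the single factor. DESeq2 1.42.0 was an alternative, as were other filters, clusterings, scalings and leaving out each library. CPM is counts per 1000000 UMIs of the summed cells, and ± is the SD over libraries. The edgeR step was tested on simulated data.

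The members and gene lists were chosen with earlier results of these data known. Named besides the chains are genes of the lists (those past the test, otherwise the 2 to 4 highest of each), the 10 genes most like C1q and the 5 with the smallest p in the macrophage class. Monocyte and macrophage markers, the own and macrophage genes shown in cells outside the class, and Cd274 were named after their values were seen. Some genes of the lists are not reported here by name.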

Additional observations from a re-analysis of the deposited data

Results flagged for a closer look

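C1q was also present in the 1126 barcodes that failed the filter on genes and mitochondrial UMIs, which no comparison uses, and it was higher in both PD-L1 KO libraries than in both WT libraries. The 3 chains summed to 663 and 1153 CPM in the PD-L1 KO libraries and to 616 and 434 CPM in the WT libraries, from 393 and 647 UMIs in the PD-L1 KO libraries and 405 and 259 UMIs in the WT libraries. At least 1 C1q UMI was found in 16% and 16.2% of these barcodes in the PD-L1 KO libraries and in 14.5% and 8.1% in the WT libraries. The lower PD-L1 KO library and the higher WT library were close, and the difference was not tested.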

How the results depend on the processing

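With 2 libraries a group, 1 library can decide a value. Leaving out each library in turn, the log2 differences over all kept cells ranged from 0.42 to 1.46 for C1qa, 0.45 to 1.63 for C1qb and 0.39 to 1.55 for C1qc, passing the test without WT 1, and the genes called ranged from 0 to 2258. In the macrophage class the same ranges were -0.15 to 0.060, -0.017 to 0.12 and -0.086 to 0.036, with 2 to 747 genes called against 0 with all libraries. Monocyte-like and macrophage-like cells together ranged over 0.17 to 0.39, 0.20 to 0.56 (past the test without WT 1) and 0.13 to 0.48, with 0 to 509 genes. Alveolar macrophage-like cells ranged over -0.90 to 0.30, -1.09 to 0.89 and -0.48 to 1.23, with 2 to 64 genes against 2, and other lineages over 0.39 to 0.46, 0.48 to 0.64 and 0.10 to 0.34, with 0 to 31 genes. Each lone library is assumed to vary like the other group. The share of the class ranged from 0.60 to 1.2 on the log2 scale. The difference in the share of class cells, in percentage points, ranged from -13.5 to -5.65, -13.1 to -3.75 and -15.6 to -3.57 at 1 UMI of C1qa, C1qb and C1qc, and from -18.2 to -6.56, -18.2 to -3.76 and -13.1 to -3.39 at 10 UMIs.

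The near-zero differences within the macrophage class changed sign under several settings, none past the test. C1qa was 0.10 in the Folr2-led cluster alone. C1qb was -0.018 without scaling factors, -0.087 under the strict cell filter (at least 500 genes, at most 5% mitochondrial UMIs) and -0.27 in the Mmp12-led cluster alone. C1qc was 0.0022 without the low-count filter, 0.017 without a cell filter, 0.012 with doublets kept, 0.0044 with C1q allowed in the clustering, 0.0012 at Leiden resolution 2 and 0.14 in the Folr2-led cluster alone. In alveolar macrophage-like cells C1qa was 0.44 without a cell filter, 0.41 under the strict filter, 0.18 with doublets kept and 0.40 with C1q in the clustering, and C1qb 0.54 and 0.31 under the last 2. The cluster and leukocyte sets were chosen after seeing the data. C1qb at 10 UMIs differed by 0.96 percentage points after thinning to 2000 UMIs, against -11.0. The cause of these changes was not tested.

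DESeq2 called 12, 8, 14, 24 and 8 genes in all kept cells, the macrophage class, the set with monocytes, alveolar macrophage-like cells and other lineages, where edgeR called 0, 0, 0, 2 and 0. Without the low-count filter 327, 325 and 6 genes were called in the last 3. The Folr2-led cluster alone gave 8. Alveolar macrophage-like cells gave 13 without a cell filter, 36 under the strict filter, 36 with doublets kept, 8 with C1q in the clustering, 48 at Leiden resolution 0.5 and 4 at resolution 2. The labels do not say that a replicate number marks a shared batch, and deviations of same-numbered libraries correlated at -0.33 to -0.07 over genes. With the replicate number as a block the C1qa difference was 0.94 over all kept cells and -0.05 in the macrophage class, no chain passed the test in any set, and the macrophage class, the set with monocytes and alveolar macrophage-like cells gave 161, 50 and 18 genes. Beside the leave-one-out ranges and the changes above, the settings run kept each chain's direction and side of the threshold.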
